A study of Mus musculus with 8 samples.

Results

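Integrins are the receptors through which cells hold on to the matrix around them, and laminins and nidogens are the glycoproteins that many of them hold on to. The genes described here are those whose symbols begin with Itga or Itgb, or with Lama, Lamb or Lamc and a digit, with Nid1 and Nid2 added. The RefSeq gene table holds 44 such genes, and the accessions of the array's probes led to 40 of them, out of 18217 genes reached in all. Itga10, Itgad, Itgb8 and Lamc1 were not reached and are not analysed here. Of the 40, 36 were measured, which means that 1 probe or more stood well above background on no fewer than 4 arrays out of 8. Itga2, Itgb2l, Lama1 and Lamc3 did not pass that filter.

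The hearts came from male C57BL/6J mice, a standard inbred laboratory strain, aged 9 weeks. One group of 4 mice had gone without food for 2 days with water freely available, and the other group of 4 was satiated. All mice were kept on a standard dry pellet diet. Total RNA of each heart was hybridised to its own one-colour Agilent array, so the level of a gene is a sum over all cell types of the organ. Fewer cells of a type and less RNA per cell cannot be told apart in such samples.

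The 8 arrays lay on 2 slides of 4, with replicates 1 and 2 of both groups on slide 1 and replicates 3 and 4 on slide 2. Between 54.4% and 68.9% of probes were well above background, with the lower shares on slide 2, and no spot was saturated. All 8 cardiomyocyte markers on the list used here were measured, with a summed level of 2088 to 2899 in fasted hearts and of 2221 to 2942 in satiated hearts, in multiples of each array's 75th percentile signal; of the 8, none rose and 1, Actc1, fell. The limma comparison of fasted with satiated hearts called 4073 of 20203 tested features, which is 20.2%, at a threshold of 0.05 on the p adjusted by Benjamini-Hochberg. Blocking on slide gave 7177 calls, which is 35.5%. The labels give each sample of a group a replicate number of its own. With each replicate taken as a separate heart, each p rests on the spread between hearts.

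An integrin is a pair of 1 alpha and 1 beta chain that spans the membrane, and the pair decides which ligand is bound. In heart muscle, pairs of the beta 1 chain tie cardiomyocytes to the basement membrane and pass on mechanical load. A laminin is a cross of 1 alpha, 1 beta and 1 gamma chain that self-assembles into a sheet on the cell surface, and nidogens join that sheet to the collagen IV network below it.

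Among the members that passed the test, the promoter windows of the one with the largest rise and of the pair with the largest falls are shown so that they can be set beside the values that follow. Each is the 250 bases before an annotated start, 5′ to 3′ on the strand of the gene, on assembly GRCm38.p6, and capitals mark a match to GGGCGG, the GC box bound by Sp1-type factors, on either strand.
Itgb5, chr16:33829415-33829664, plus strand: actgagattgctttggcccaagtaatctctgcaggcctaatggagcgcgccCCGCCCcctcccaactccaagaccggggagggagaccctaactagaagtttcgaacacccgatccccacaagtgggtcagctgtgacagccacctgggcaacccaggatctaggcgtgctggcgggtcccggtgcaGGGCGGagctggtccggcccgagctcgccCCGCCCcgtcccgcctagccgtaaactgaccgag
Itgb6, chr2:60722604-60722853, minus strand: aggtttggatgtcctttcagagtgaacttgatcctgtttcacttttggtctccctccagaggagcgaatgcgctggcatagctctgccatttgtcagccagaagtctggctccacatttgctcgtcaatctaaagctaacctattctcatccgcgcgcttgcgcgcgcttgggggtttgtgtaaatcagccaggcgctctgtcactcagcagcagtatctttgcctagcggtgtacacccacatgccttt
Itga9, chr9:118711442-118711691, plus strand: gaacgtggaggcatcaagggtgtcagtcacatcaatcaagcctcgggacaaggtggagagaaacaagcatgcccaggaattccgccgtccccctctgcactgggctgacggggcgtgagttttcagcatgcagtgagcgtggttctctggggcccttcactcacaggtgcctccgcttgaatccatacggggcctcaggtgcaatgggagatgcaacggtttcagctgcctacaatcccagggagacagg
The window of Itgb5 held 3 GC boxes, which begin at -199, -63 and -34 relative to the start, and those of Itgb6 and Itga9 held none. Itgb6 has a further start in the table, whose window held none either. A GC box was present in 32.7% of all 32851 windows of that length and in 11 of 31 windows of the 28 members found in the table. The same 3 windows were searched on both strands for TATAAA, the TATA box, for CCAAT, for TGANTCA, the AP-1 site, and for GTAAACA, a site of FoxO factors, with no match. These letters were present in 12.4%, 33.8%, 6.75% and 3.17% of all windows, in that order. None of these motifs contains another.

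After the fast, 10 of the 36 measured members had changed, 4 higher and 6 lower. Itgb5 and Itgb3, both beta chains that pair with alpha v, rose, as did Itga5, the alpha chain of the fibronectin receptor. Itgb6, Itga9, Itga11, Itga6, Lama4 and Itga1 fell, and among them Itgb6 had the largest change of any measured member. The 10 calls are 27.8% of the measured members, against 20.2% of all genes and probes tested. Those higher are 4 of 36, where 9.82% of all tested were higher, and those lower are 6 of 36, where 10.3% of all tested were lower. The median log2 fold change over the measured members was -0.14, against -0.00423 over all tested. When blocked on slide 16 of the 36 changed (44.4%), 6 higher and 10 lower, against 35.5% of all tested, of which 17.1% were higher and 18.4% lower. A change of at least 2-fold that passed was seen for 4 of the 36, Itgb6, Itga9, Itga11 and Itgb5, and for 7.38% of all tested. The groups did not overlap for 11 of the 36 members (30.6%), against 27.6% of all tested. By kind, 1 of 15 measured alpha chains rose and 4 fell, and 2 of 7 beta chains rose and 1 fell, with median differences of -0.32 and 0.35. The number of calls was 6 without satiated replicate 2 and 6 without satiated replicate 4, and 7 to 9 without any other single heart.

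**Figure D1:**
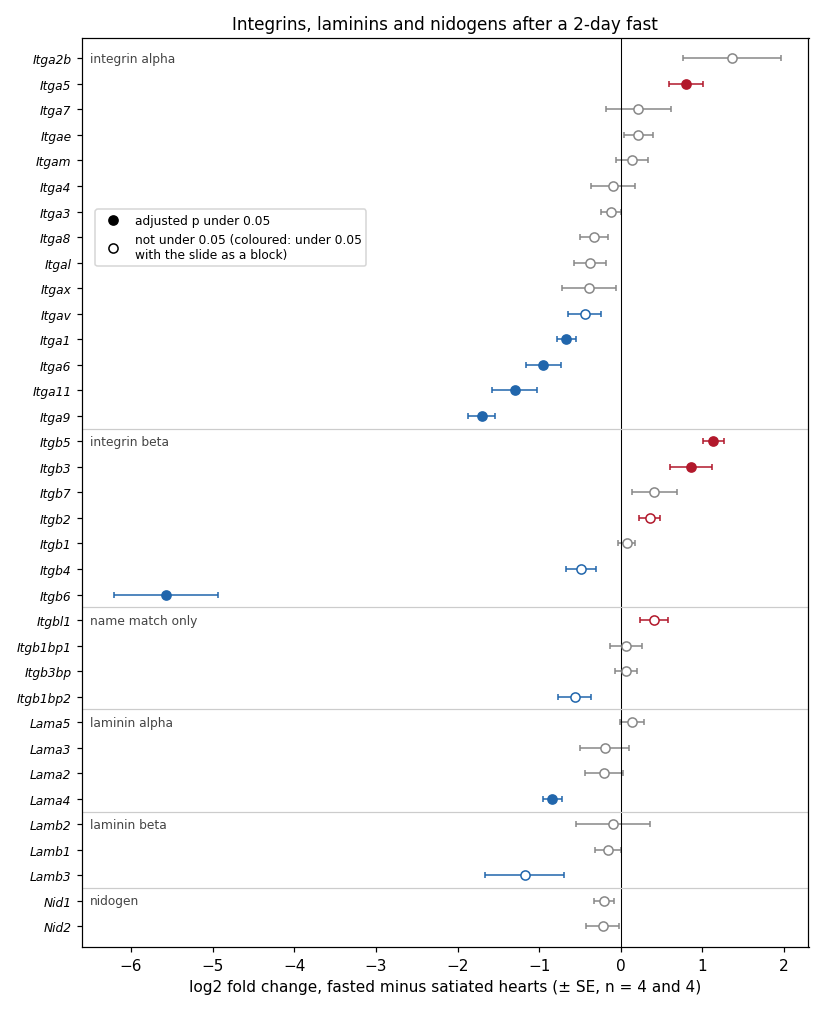
Log2 fold changes of 35 measured members, fasted minus satiated, with standard errors (horizontal axis), grouped by kind of gene. Filled points passed at an adjusted p under 0.05, and coloured open points passed only when blocked on slide. Itgb6 lies at -5.57, with 2 of its fasted hearts at background, far from all others, which lie between -1.71 and 1.36.

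Levels below are log2 signals relative to the 75th percentile of the array, so that 0 stands for that percentile and a step of 1 for a 2-fold difference. They are given for replicates 1 to 4 in order. Differences are log2 fold changes, fasted minus satiated, with their standard errors (n = 4 and 4). The adjusted p of a gene is Benjamini-Hochberg adjusted over all genes and probes tested with limma. Where other probes of a gene are given, their values come from a separate limma fit, adjusted over all 26480 probes that passed the filter. Levels of different genes come from different probes and are not compared with each other. A block on replicate number largely repeats the block on slide, since each number lies on 1 slide, and is no separate support.

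Among Itgb3, Itgb5 and Itgb6, whose chains pair with alpha v, 2 rose and 1 fell. Itgb5 makes the vitronectin receptor alpha v beta 5. Its level was 5.90, 5.87, 6.26 and 6.02 in the fasted hearts, against 4.85, 4.77, 4.96 and 4.94 in the satiated hearts. All 4 fasted hearts lay above all 4 satiated hearts, by far more than the spread within either group. The difference was 1.13 ± 0.13, or 2.20-fold (adjusted p = 0.00118), with 1.08 on slide 1 and 1.19 on slide 2. It stayed called without any single heart (adjusted p = 0.0016 to 0.00607).

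Itgb3 makes alpha v beta 3, found on activated endothelium and smooth muscle, and also the platelet receptor for fibrinogen. Its level was 0.59, 0.87, 0.63 and 1.31 in the fasted hearts, against 0.64, -0.44, -0.13 and -0.12 in the satiated hearts. Satiated replicate 1 lay within the range of the fasted hearts, and the other 3 satiated hearts lay below it. The difference was 0.87 ± 0.26 (adjusted p = 0.0475, adjusted p = 0.0421 when blocked on slide, and adjusted p = 0.0653 when blocked on replicate number). The call held without satiated replicate 1 (adjusted p = 0.0166) and was lost without any other heart (adjusted p = 0.0632 to 0.118).

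Itgb6 makes alpha v beta 6, a receptor known from epithelia, where it activates latent TGF-beta. Its level was -5.09, -3.59, -6.37 and -5.99 in the fasted hearts, against 0.09, 1.30, -0.69 and 0.54 in the satiated hearts. The groups lay far apart on both slides. The probe was well above background in all 4 satiated hearts and in the 2 fasted hearts of slide 1, but not in the 2 fasted hearts of slide 2, whose values are therefore at background. On slide 1 alone, where all 4 hearts gave a signal above background, the difference was -5.03 (adjusted p = 0.0308). Over all hearts the fit gave -5.57 ± 0.64 (adjusted p = 0.00128), which takes in the 2 values at background and is no measured fold. Its standard error and p rest on the same 2 values, and the 4 satiated hearts alone were enough for the filter. For a bound, those 2 were set to the lowest signal well above background on their arrays. Itgb6 was then at least 25.2-fold lower in the fasted hearts on average over both slides. On slide 2 alone the bound was 19.3-fold. With normexp background correction, which adds an offset to every signal, it was -3.28 (adjusted p = 0.000358). A second probe of Itgb6 was well above background in all 4 satiated hearts and in none of the 4 fasted hearts, with mean levels of -6.12 in fasted and -1.43 in satiated hearts. Against the lowest signal well above background on each fasted array, that probe was at least 11.8-fold lower in the fasted hearts on average. Its bound on slide 2 alone was 7.37-fold. This second probe passed the filter through the satiated hearts alone, so its p is not given. The remaining probe was well above background in 2 of 4 satiated hearts and in 0 of 4 fasted hearts, and was not tested.

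Since Itgb6 is known as an epithelial gene, 12 markers of lung and airway epithelium were looked up, a list written after the values of Itgb6 had been seen. Only 5 were measured, and the alveolar markers Sftpa1, Sftpb, Sftpc and Sftpd were not among them, nor were Epcam, Cdh1 and Foxj1. Of the 5, 4 rose, Krt18, Krt8 and the airway secretory genes Scgb3a1 and Scgb1a1, and none fell, where 9.82% of all tested were higher. Scgb1a1 was well above background in 3 of 4 fasted and 2 of 4 satiated hearts. The summed level of the 5 was 4.88 to 36.2 in fasted hearts and 2.18 to 3.005 in satiated hearts, in multiples of the 75th percentile signal. Of 6 mesothelial markers 1 rose and none fell, with sums of 7.73 to 11.5 in fasted and 4.23 to 7.67 in satiated hearts. Their part in the Itgb6 result was not tested.

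The other measured beta chains moved less. Itgb1, the beta chain shared by most matrix-binding integrins, had levels of 2.45, 2.43, 2.67 and 2.57 in the fasted hearts, against 2.40, 2.53, 2.44 and 2.46 in the satiated hearts. The groups overlapped, and the difference was 0.07 ± 0.11 (adjusted p = 0.691). Itgb4, the beta chain of hemidesmosomes and a partner of alpha 6, had levels of -0.34, -0.18, -0.85 and -0.60 in the fasted hearts, against 0.15, 0.20, -0.09 and -0.28 in the satiated hearts. On each slide both fasted hearts lay below both satiated hearts. Its difference of -0.49 ± 0.18 did not pass (adjusted p = 0.0977) but did when blocked on slide (adjusted p = 0.00808) and when blocked on replicate number (adjusted p = 0.0254).

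**Figure D2:**
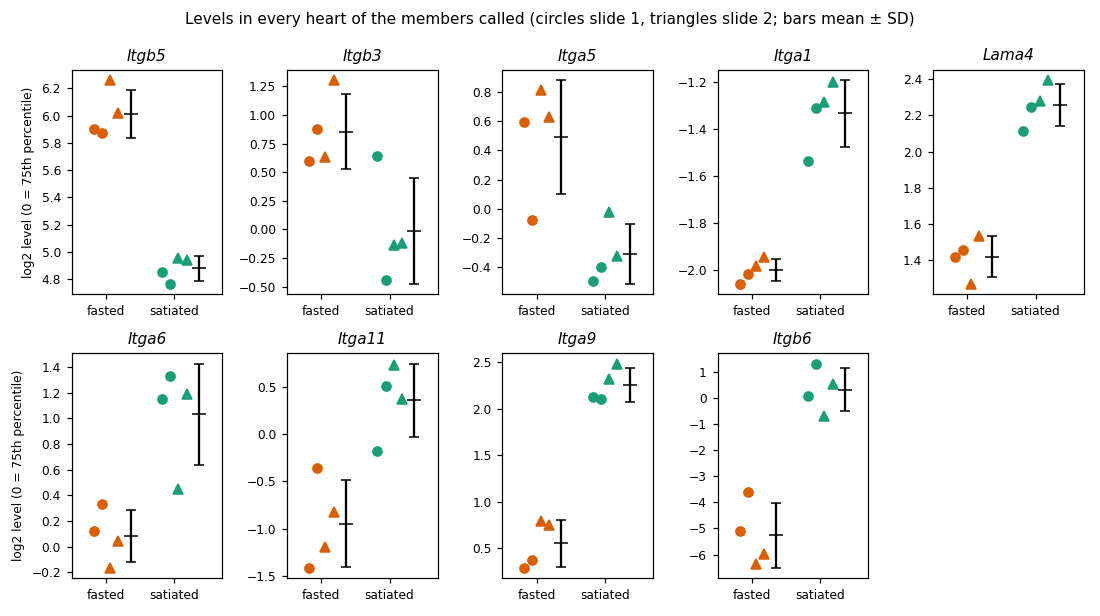
Log2 level in every heart (vertical axis, 0 is the array's 75th percentile) of 9 members that passed, fasted left and satiated right, with circles for slide 1, triangles for slide 2 and bars for mean ± SD. The 4 fasted hearts sit apart from the 4 satiated hearts in 7 of the 9 panels, and in those of Itgb3 and Itga5 the groups overlap.

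Of the 4 alpha chains that bind collagen only 2 were measured, and these 2 fell, where 10.3% of all tested were lower. Itga2 did not pass the filter and Itga10 was not reached, so nothing is known of them here. Itga1, whose pair with beta 1 binds collagens including that of basement membranes, had levels of -2.06, -2.01, -1.98 and -1.94 in the fasted hearts, against -1.53, -1.31, -1.29 and -1.20 in the satiated hearts. The groups did not overlap, and the fasted hearts varied little among themselves. The difference was -0.67 ± 0.11 (adjusted p = 0.00593), and the 2 other probes of the gene gave -1.27 ± 0.14 (adjusted p = 0.00105) and -0.72 ± 0.24 (adjusted p = 0.0628). Itga11, a fibroblast receptor for fibrillar collagen, had levels of -1.41, -0.36, -1.20 and -0.82 in the fasted hearts, against -0.18, 0.50, 0.73 and 0.37 in the satiated hearts. Fasted replicate 2 came nearest to the satiated group, without overlap. The difference was -1.30 ± 0.27, or 2.46-fold (adjusted p = 0.0133). Both calls held without any single heart. Among 8 fibroblast markers 1 rose and 4 fell, with a median difference of -0.55. Their summed levels were 510.2 to 651 in fasted and 476 to 529.9 in satiated hearts. Most of that sum came from Gsn and from Dcn, the 1 that rose. The part of these markers in the results of Itga1 and Itga11 was not tested.

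Itga9, whose pair with beta 1 binds tenascin-C, osteopontin and VCAM-1, showed the smallest p of all members. Its level was 0.29, 0.38, 0.79 and 0.75 in the fasted hearts, against 2.12, 2.10, 2.32 and 2.48 in the satiated hearts. Even the highest fasted heart lay more than 1 unit below the lowest satiated heart. The difference was -1.71 ± 0.16, or 3.26-fold (adjusted p = 0.000706), with -1.78 on slide 1 and -1.63 on slide 2. A second probe gave -1.66 ± 0.14 (adjusted p = 0.000417). Itga4, its closest relative among the alpha chains, had a difference of -0.10 ± 0.27 (adjusted p = 0.844) at a low signal.

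Of the 3 alpha chains that bind laminin, Itga6 fell and the other two did not pass. Itga6 pairs with beta 1 or beta 4 and is found on endothelium, epithelia and Schwann cells. Its level was 0.12, 0.33, -0.16 and 0.04 in the fasted hearts, against 1.15, 1.33, 0.45 and 1.19 in the satiated hearts. Satiated replicate 3 was the satiated heart nearest to the fasted hearts, and the groups did not overlap. The difference was -0.95 ± 0.21 (adjusted p = 0.0169). Leaving out satiated replicate 2 (adjusted p = 0.0502) or satiated replicate 4 (adjusted p = 0.0512) ended the call.

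Itga7, the laminin receptor chain of striated muscle, had levels of 0.80, 0.65, 1.81 and 1.94 in the fasted hearts, against 0.40, 0.70, 1.68 and 1.56 in the satiated hearts. The slides differed more than the groups did, and the difference was 0.22 ± 0.40 (adjusted p = 0.765, and adjusted p = 0.13 when blocked on slide). Itga3 gave -0.12 ± 0.12 (adjusted p = 0.567). Among 10 endothelial markers 0 passed in limma, 1 of them at an unadjusted p under 0.05, with sums of 70.6 to 90.5 in fasted and 63.8 to 89.2 in satiated hearts. When blocked on slide, 2 of the 10 rose, Pecam1 and Vwf, and 1 fell, Kdr. Of 5 measured Schwann cell markers, Gfra3 and S100b fell, with sums of 1.66 to 2.08 in fasted and 2.72 to 3.27 in satiated hearts. Their part in the results of Itga6 and Itgb4 was not tested.

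Alpha chains of the group that recognises the RGD sequence in ligands gave 1 call among 4. Itga5, the fibronectin receptor chain, had levels of 0.60, -0.08, 0.82 and 0.63 in the fasted hearts, against -0.49, -0.40, -0.02 and -0.32 in the satiated hearts. Fasted replicate 2 lay just below satiated replicate 3, and the other fasted hearts lay above all satiated hearts. The difference was 0.80 ± 0.21 (adjusted p = 0.0303). That call held only without fasted replicate 2 (adjusted p = 0.00732) or satiated replicate 3, and was lost without any other single heart (adjusted p = 0.063 to 0.079). Itgav, the partner of the beta 3, beta 5 and beta 6 chains, had levels of -0.94, -0.82, -1.54 and -1.43 in the fasted hearts, against -0.48, -0.61, -0.88 and -0.999 in the satiated hearts. On each slide both fasted hearts were the lower ones. Its difference of -0.44 ± 0.20 did not pass (adjusted p = 0.169) but did when blocked on slide (adjusted p = 0.00878) and when blocked on replicate number (adjusted p = 0.0303). Itga8, which pairs with beta 1 on smooth muscle and fibroblasts, gave -0.32 ± 0.17 (adjusted p = 0.23).

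Itga2b, the alpha chain of platelets and megakaryocytes, spread more within the groups than most members. Its level was -3.82, -2.85, -2.20 and -1.50 in the fasted hearts, against -3.10, -5.38, -3.58 and -3.76 in the satiated hearts. Satiated replicate 2 was the lowest heart and fasted replicate 4 the highest, and the groups overlapped. The difference of 1.36 ± 0.60 did not pass (adjusted p = 0.15). Of the 7 other platelet markers 0 passed in limma. The 1 with an unadjusted p under 0.05 was Pf4, at -0.66 ± 0.20, which fell when blocked on slide (adjusted p = 0.0168). The median difference of the 7 was 0.90. Their summed level, most of which came from Pf4, was 8.25 to 13.2 in fasted and 10.4 to 20.4 in satiated hearts.

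Leukocyte integrins gave no call. Differences of the 4 measured leukocyte alpha chains lay between -0.39 (Itgax, CD11c) and 0.21 (Itgae), with Itgal (-0.37) and Itgam (0.13) between them, and 0 of the 4 had an unadjusted p under 0.05 in limma. Itgb2, the beta chain of all leukocyte-specific CD11 integrins, had levels of -1.17, -0.79, -0.93 and -0.71 in the fasted hearts, against -1.29, -1.29, -1.19 and -1.24 in the satiated hearts. The fasted hearts all lay above the satiated hearts, although fasted replicate 1 did so by little. Its difference of 0.35 ± 0.13 did not pass (adjusted p = 0.0908) but did when blocked on slide (adjusted p = 0.04), though not when blocked on replicate number (adjusted p = 0.0599). Itgb7, the partner of Itgae on lymphocytes, gave 0.41 ± 0.28 (adjusted p = 0.344). Of 7 measured leukocyte markers 0 passed in limma and 0 had an unadjusted p under 0.05, with sums of 7.73 to 14.5 in fasted and 12.8 to 15.5 in satiated hearts.

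Of the 4 genes that share only the name of the integrin subunits, 0 passed in limma, 2 of them at an unadjusted p under 0.05. Itgb1bp2 encodes melusin, a muscle protein that binds the beta 1 tail and takes part in the response to mechanical load. Its level was 3.39, 3.27, 3.88 and 3.90 in the fasted hearts, against 3.93, 3.95, 4.37 and 4.46 in the satiated hearts. The groups did not overlap, and both were higher on slide 2. The difference of -0.57 ± 0.20 did not pass (adjusted p = 0.0873) but did when blocked on slide (adjusted p = 0.00186) and when blocked on replicate number (adjusted p = 0.00978). Itgbl1, a secreted protein with repeats like those of beta chains, had levels of 0.53, 0.91, 0.26 and 0.26 in the fasted hearts, against 0.17, 0.23, 0.02 and -0.08 in the satiated hearts. It too passed only with such a block, with a difference of 0.41 ± 0.17 (adjusted p = 0.136, adjusted p = 0.0248 with the slide and adjusted p = 0.0397 with the replicate number). Itgb1bp1, which also binds the beta 1 tail, gave 0.06 ± 0.20 (adjusted p = 0.864). Itgb3bp, a centromere protein, gave 0.06 ± 0.13 (adjusted p = 0.801), but a second, much dimmer probe of the gene was lower in fasted hearts. That probe was well above background in 4 of 4 satiated hearts but in only 2 of 4 fasted hearts. The size of its change is therefore not given.

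Laminin alpha chains gave 1 call among 4. Lama4, the alpha chain of the basement membrane around capillaries, had levels of 1.42, 1.45, 1.27 and 1.53 in the fasted hearts, against 2.11, 2.25, 2.28 and 2.40 in the satiated hearts. The gap between the groups was larger than the range within either. The difference was -0.84 ± 0.12, or 1.79-fold (adjusted p = 0.00266), and it was -0.95 ± 0.16 and -0.81 ± 0.14 with the 2 other probes (adjusted p = 0.00532 and 0.00653). It stayed called without any single heart. The endothelial markers given above hold beside this gene too. Of 8 smooth muscle and pericyte markers 0 rose and 2 fell, with a median difference of 0.12. Their sums were 106 to 132 in fasted and 113 to 130 in satiated hearts. When blocked on slide, 1 of these 8 rose and 2 fell. The part of either list in the result of Lama4 was not tested.

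Lama2, the alpha chain of the laminin around muscle fibres, had levels of 0.17, 0.33, 0.93 and 0.76 in the fasted hearts, against 0.33, 0.58, 0.97 and 1.13 in the satiated hearts. The groups overlapped, and the difference was -0.21 ± 0.24 (adjusted p = 0.597). Lama5, a chain of vessel walls and epithelia, gave 0.14 ± 0.15 (adjusted p = 0.558). Lama3, the alpha chain of an epithelial laminin, gave -0.20 ± 0.30 at a low signal (adjusted p = 0.705).

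Lamb3, the beta chain of the same laminin, had levels of -2.03, -1.57, -0.20 and -1.01 in the fasted hearts, against -0.52, -0.86, 0.78 and 0.49 in the satiated hearts. On each slide both fasted hearts lay below both satiated hearts, while over the 2 slides the groups overlapped. Its difference of -1.18 ± 0.48 did not pass (adjusted p = 0.125) but did when blocked on slide (adjusted p = 0.00547) and when blocked on replicate number (adjusted p = 0.0103).

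The more common partner chains did not pass. Lamb1, a beta chain of many basement membranes, gave -0.16 ± 0.16 (adjusted p = 0.541). Lamb2, the beta chain of vessels and of muscle at its nerve contacts, gave -0.09 ± 0.45 (adjusted p = 0.917), with levels of 3.06 to 4.40 in fasted and 3.03 to 4.52 in satiated hearts that split by slide in both groups. Of the nidogens, 0 of 2 passed in limma and 0 had an unadjusted p under 0.05. Nid1 had levels of 3.30, 3.54, 3.69 and 3.53 in the fasted hearts, against 3.57, 3.70, 3.78 and 3.83 in the satiated hearts. On each slide both fasted hearts were lower, and the difference was -0.20 ± 0.12 (adjusted p = 0.298). Nid2 gave -0.22 ± 0.20 (adjusted p = 0.496).

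**Figure D3:**
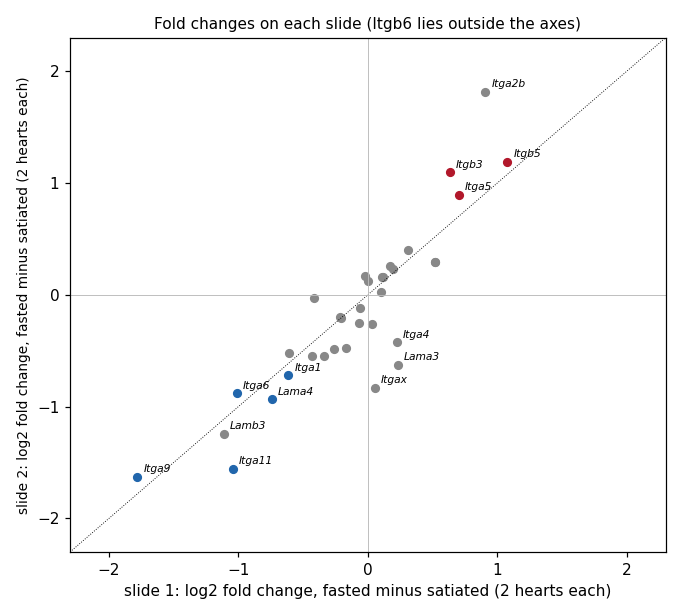
Log2 fold change of 34 measured members on slide 1 (horizontal axis) and on slide 2 (vertical axis), each from 2 fasted and 2 satiated hearts, coloured where the comparison over all hearts passed. The 8 coloured members have the same sign on both slides, and Itgb6 lies outside the axes, at -5.03 on slide 1. On slide 2 the fasted hearts were at background for Itgb6, so its value there is no measured fold.

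The slides were also set against each other. The sign of the difference was the same on slide 1 and slide 2 for 30 of the 36 members, and for 81.1% of all tested. Slide 1 alone, with 2 hearts per group, called 5 of the 36 at an adjusted p under 0.05, against 9.32% of all tested. Slide 2 alone called 0 of the 36 in limma, where it called 0.00495% of all tested, and 15 of the 36 had an unadjusted p under 0.05 there, against 26.4% of all tested.

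Of the 36 measured members, 11 had more than 1 probe above the filter. Among their 14 other probes, 11 had the same sign of difference as the probe that represents the gene and 3 had the opposite sign. Only the dimmer probe of Itgb3bp was of opposite sign and called, and it was well above background in only 2 of 4 fasted hearts. For Itga1, Itga9 and Lama4, 4 other probes, all above background on every array, were called in the same direction as the representative.

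**Figure D4:**
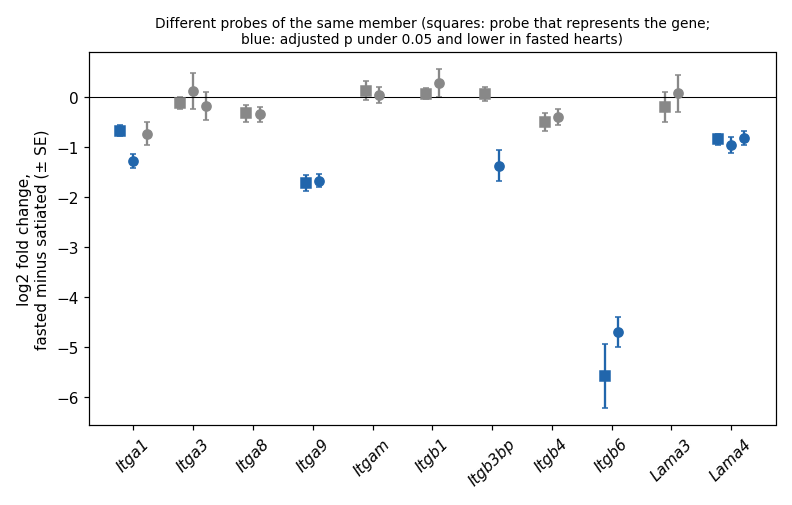
Log2 fold changes with standard errors (vertical axis) of every probe above the filter for the 11 members with more than 1, with squares for the probe that represents the gene. Probes of Itga9, Itgb6 and Lama4 are all lower in fasted hearts, and the 2 probes of Itgb3bp differ. The second probe of Itgb6 was well above background in 0 of 4 fasted hearts, and the dimmer probe of Itgb3bp in 2 of 4. The sizes plotted for those probes are therefore no measured folds.

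Genes that work next to the members were counted from 4 lists. Of 32 measured proteins that link integrins to the cytoskeleton 5 rose and 2 fell, with a median of 0.03. Nrap, a muscle protein that anchors actin at cell junctions (0.65 ± 0.13), and Fermt2, the kindlin that activates integrins in muscle (0.52 ± 0.13), were among those that rose. Parvg, a parvin of blood cells, rose too, but it was well above background in 4 of 4 fasted hearts and in only 1 of 4 satiated hearts, so the size of its change is not given. Among those that fell was Ptk2, the focal adhesion kinase (-1.23 ± 0.33), which was picked for naming after its values were seen. Of 20 other measured basement membrane components 1 rose and 6 fell, with a median of -0.27. They included Col15a1, a collagen beneath capillaries and muscle (-2.09 ± 0.21), Smoc2, a matrix calcium-binding protein (-1.04 ± 0.16), Pxdn, the peroxidase that crosslinks collagen IV (-1.22 ± 0.21), and Fras1 (-1.19 ± 0.22), all of which fell.

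Among 23 genes of the dystroglycan complex and other laminin receptors 1 rose and 4 fell, with a median of -0.08. Lgals1, a galectin (-0.81 ± 0.15), Bcam, a receptor for the laminin alpha 5 chain (-0.60 ± 0.12), and Sspn, sarcospan (-0.84 ± 0.18), fell. Among 18 other measured integrin ligands 3 rose and 3 fell, with a median of 0.20. Thbs2, a thrombospondin (2.16 ± 0.23), and Ccn2, a matricellular growth factor (2.21 ± 0.41), rose, while Postn, periostin (-1.12 ± 0.15), and Icam2, a ligand of Itgal with Itgb2 (-0.86 ± 0.19), fell. The 4 lists together gave 25 calls among 93 measured genes, which is 26.9%, against 20.2% of all tested. When blocked on slide, 44 of the 93 were called, against 35.5% of all tested.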

How the data were processed

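Spot intensities on a linear scale, background-subtracted within each array by Agilent Feature Extraction (versions 10.5.1.1 and 10.7.3.1, per the file headers; the submitters' processing notes name 9.1), were the deposited starting values. The deposited series table holds linear ratios, made by the authors in a way not given in the sources used here, and served as an alternative. Each array has 45018 spots; 1639 control spots and those with an outlier mark were dropped. Log2 signals were averaged per probe and set relative to their array's 75th percentile. Probes well above background on at least 4 arrays were kept, 26480 of 41174. Accessions were matched to RefSeq symbols of GRCm38.p6 for 26690 probes (64.8%). The brightest kept probe represents a gene, and unnamed probes stand alone, 20203 in all. The array annotation is of another build, so no coordinates of probes are given.

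The two-sided comparison used limma 3.58.1 (lmFit, eBayes; R 4.3.3), without a block. Figures used matplotlib 3.10.9. The number of arrays limits the precision. Same-numbered hearts deviated together from their group means (r = 0.331 to 0.493), as did differently numbered hearts of the same slide (0.291 to 0.522), so a replicate block largely repeats the slide. Alternatives were normexp (offset 50, on median signals, since mean signals are not in the tables used), quantile scaling, another percentile, other filters, slide or replicate blocks, each slide alone, array weights, mean probes and each heart left out. Members called in either fit, or leading a class without a call, are given per heart, up to 4 genes per list are named, and single genes such as Itga2b were added after their values were seen. Members and lists were chosen with earlier results of these data known. A few genes, 1 member among them, enter the counts but are not reported here. The comparison was tested on simulated data.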

Additional observations from a re-analysis of the deposited data

Results flagged for a closer look

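Within groups of 4 hearts, the gap of the extreme heart to its neighbour was set against the whole range of the group. For the 36 measured members, 2 of 72 groups were flagged, a smaller share than the 5% or so that chance alone gives. Both concern Lama3, at a signal near background. Fasted replicate 2 lay at -3.02, above the other fasted hearts at -4.24 to -4.20, and satiated replicate 1 lay at -4.19, below the other satiated hearts at -3.61 to -3.52.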

How the results depend on the processing

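Over all genes 4073 changed, 10 of the members and 25 genes of the 4 neighbouring lists. With the slide as a block these counts were 7177, 16 and 44. On slide 1 alone they were 1883, 5 and 15, and on slide 2 alone 1, 0 and 0, with 5333 of all genes at an unadjusted p under 0.05. With the replicate number as a block they were 6486, 14 and 42, and among the members Itgb3 lost its call while Itgav, Itgb1bp2, Itgb4, Itgbl1 and Lamb3 gained one. With no filter on dim probes, where 32701 genes and probes were tested, they were 2225, 7 and 16, and Itga5 (adjusted p = 0.0788) and Itgb3 (0.112) were among those that lost their calls. Without 1 heart they were 2495 to 3690, 6 to 9 and 17 to 24, and over all genes 2520 without satiated replicate 2 and 2495 without satiated replicate 4. Itgb3 also missed with another percentile (adjusted p = 0.0581) and Itga5 with the authors' ratios (0.0622). None of the 9 members described as called changed sign in any of these alternatives, and Itgb6 has no value where probes had to be above background on all arrays. Signal over background limits the low members, above all on slide 2.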
